A study of Rattus norvegicus with 40 samples.

Results

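Of 10 transcription factors of fetal lung endoderm and mesoderm chosen by name, 9 had a probe set on the arrays, out of 14218 genes measured. The members are the endodermal factors Nkx2-1, Foxa1, Foxa2, Cebpa, Sox2 and Sox9, the paralogs Foxp1 and Foxp2, and the mesodermal factors Tbx4 and Tbx5. They were found through the gene symbol that the platform annotation gives each probe set, the unit in which oligonucleotides against 1 transcript are read. This gave 20 of 31099 probe sets: 5 each for Cebpa and Foxp1, 4 for Sox2 and 1 each for the other 6 genes. No probe set was named for Sox9, so it was not analysed here. The samples were whole intestine and whole lung of embryos of timed-mated Wistar rats at gestational day 16 (E16) or day 20 (E20), 10 arrays for each organ and age, and no other treatment is labelled. Intestine was labelled from 1 µg and lung from 2 µg of total RNA, so tissue and the amount of RNA cannot be told apart. The labels do not settle whether an array holds a single embryo or siblings, so the p-values rest on the spread from array to array, whatever its source.

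The lung buds from foregut endoderm that switches on Nkx2-1, a homeodomain factor that later drives surfactant and secretory genes. Foxa1 and Foxa2 are forkhead factors of endoderm that act with it, Sox2 marks the proximal airway and Sox9 the growing distal tips, and Cebpa is needed for maturation of the alveolar epithelium. Foxp1 and Foxp2 are forkhead repressors of the lung epithelium and of gut muscle. Tbx4 and Tbx5 are T-box factors of the mesenchyme around the lung bud, where they act upstream of branching signals. Several members also work elsewhere: Nkx2-1 in the thyroid, Tbx5 in the heart, Cebpa in the liver, Foxa2 in the pancreas, and Sox2 in foregut epithelium and enteric glia.

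Values are log2 of the deposited intensities. Each gene is represented by its probe set of highest mean, which gave 14218 genes, and the median of all log2 values, 7.89, serves as a mark below which a probe set is called dim here. A gene was called where limma gave a difference of at least 2-fold and an adjusted p under 0.05, with Benjamini-Hochberg adjustment across all 14218 genes. Array medians lay between 219.9 and 263.7 intensity units. The surfactant gene Sftpc stood at a mean of 11.18 in E16 lung against 6.31 in E16 intestine. The intestinal factor Cdx2 stood at 12.12 in E20 intestine against 6.57 in E20 lung. At E20, 14 of 15 lung epithelial products were called higher in lung and 5 of 8 intestinal factors lower. The E16 lists were mixed: 5 of the 15 products were higher in lung, and of the 8 factors 3 were higher and 2 lower. Among all genes, 2.13% were higher and 3% lower in lung at E16, and 7.91% and 8.21% at E20. Markers of neighbouring organs stood out on some arrays. The mean of 9 cardiac muscle genes was 10.55 and 10.83 in lung E16 replicates 5 and 9, against a group median of 7.43. The mean of 10 liver genes was 8.88 and 9.01 in lung E20 replicates 1 and 8, against a median of 6.50, and the mesothelial mean was 10.60 in lung E20 replicate 6. In intestine E16 replicates 6, 8 and 9, the mean of 11 pancreas genes was 7.47, 7.77 and 7.51, against 6.35 to 6.75 in the other arrays. In whole tissue, fewer cells of a type and less RNA per cell cannot be told apart.

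**Figure D1:**
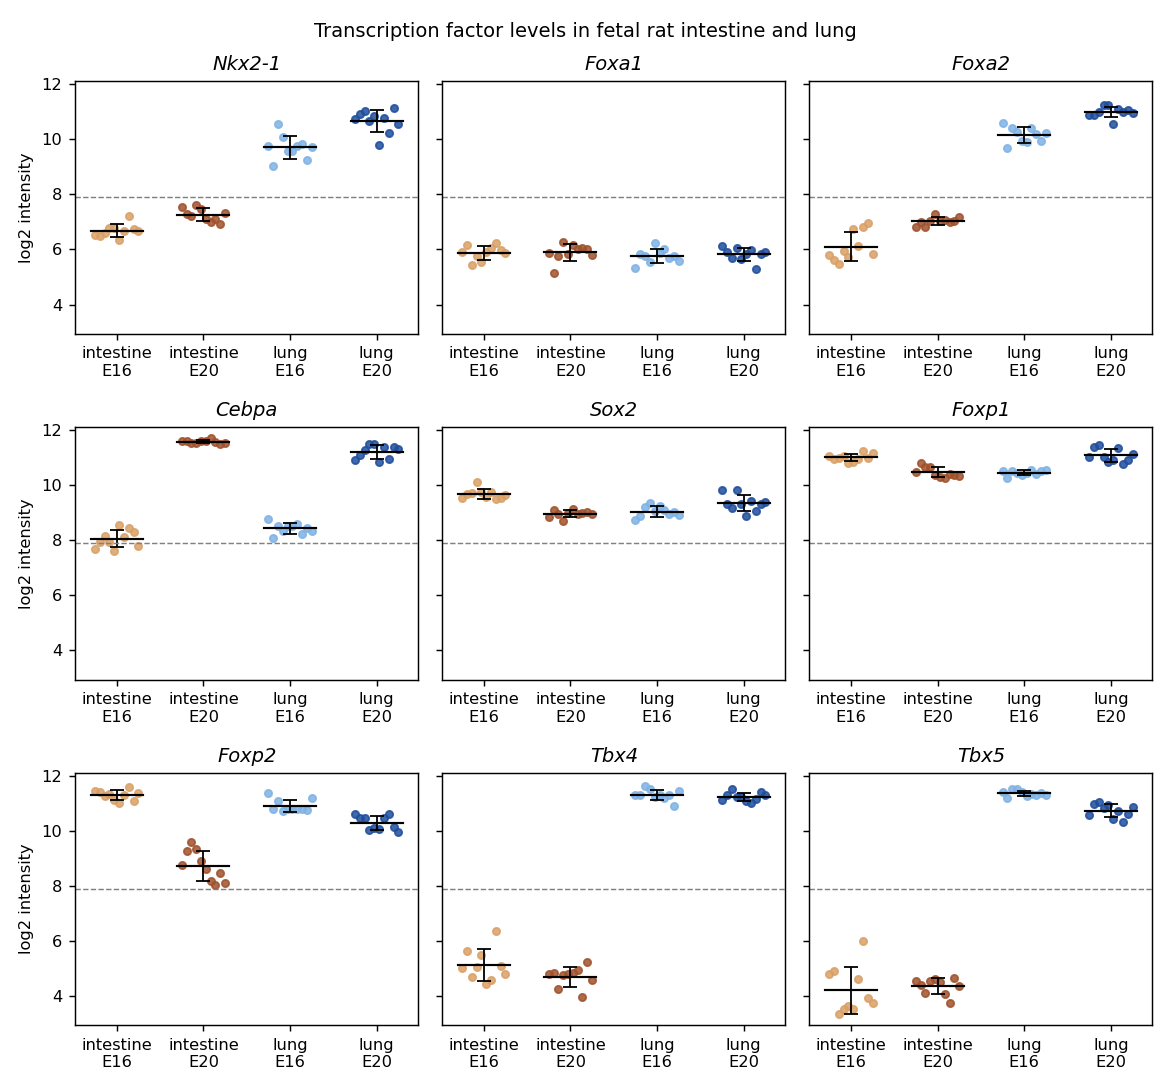
Log2 intensity (y axis) of the 9 measured genes in the 4 groups (x axis), with a point for each of the 10 arrays, a bar at the mean and whiskers of 1 SD; the dashed line is the median of all log2 values, 7.89. Tbx4, Tbx5, Foxa2 and Nkx2-1 are above the line in all lung arrays and below it in all intestine arrays, Foxa1 is below it throughout, and Cebpa steps up with age in both organs.

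Tbx4, Tbx5, Nkx2-1 and Foxa2 separated lung from intestine at both ages, with no overlap between arrays. At E16 all 4 were called higher in lung and no member was called lower, so that 4 of 9 members were called, where 5.13% of all genes were called in either direction and 2.13% higher in lung. At E20 the same 4 and Foxp2 were called higher, 5 of 9, where 16.1% of all genes were called in either direction and 7.91% higher and 8.21% lower in lung. Arrays of the organs did not overlap for 6 of 9 members at E16 (Sox2 and Foxp1 being lower in lung) and 5 of 9 at E20, against 19.3% and 34.1% of all genes. With no fold minimum 8 of 9 passed at each age, where 64.1% and 73.1% of all genes did. The median difference of the 9 members was 0.38 at E16 and 1.56 at E20, against -0.11 and -0.089 for all genes.

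Both mesodermal factors led the ranking of lung over intestine at E16. Tbx5 ran from 11.20 to 11.50 in E16 lung (median 11.37) and from 3.36 to 6.004 in E16 intestine (median 3.84). The difference was 7.15 log2 units (SE 0.199, limma adjusted p = 3.63e-29), the largest of the 14218 genes, and the ratio of normalised intensities was 142. Tbx4 ran from 10.91 to 11.61 in E16 lung (median 11.30) and from 4.43 to 6.37 in E16 intestine (median 5.04). Its difference of 6.19 (SE 0.155, limma adjusted p = 8.7e-31) ranked 2nd. At E20 Tbx4 differed by 6.53 (SE 0.155, limma adjusted p = 7.54e-33) and Tbx5 by 6.36 (SE 0.199, limma adjusted p = 1.68e-28), and they ranked 8th and 9th. All 20 intestine arrays were dim for both genes, so the size of these differences also depends on the background of the probe sets.

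The endodermal factors Foxa2 and Nkx2-1 were also higher in lung. Foxa2 ran from 9.68 to 10.59 in E16 lung (median 10.21) and from 5.49 to 6.95 in E16 intestine (median 5.87). The difference was 4.05 (SE 0.14, limma adjusted p = 6.3e-26), which ranked 10th of all genes. At E20 lung arrays stood at 10.57 to 11.23 and intestine arrays at 6.82 to 7.28, a difference of 3.96 (SE 0.14, limma adjusted p = 1.28e-26) that ranked 54th. Nkx2-1 ran from 9.03 to 10.55 in E16 lung (median 9.74) and from 6.36 to 7.23 in E16 intestine (median 6.67). Its difference of 3.03 (SE 0.143, limma adjusted p = 2.51e-21) ranked 21st. At E20 it was 3.41 (SE 0.143, limma adjusted p = 5.75e-24), with lung at 9.78 to 11.14 and intestine at 6.94 to 7.62, and ranked 82nd. Intestine was dim in all arrays for both factors, so the sizes and ranks of these differences likewise depend on the background of each probe set. The 5 markers measured of thyroid, where Nkx2-1 is also active, averaged 7.10 to 7.41 in E16 lung, with all 5 dim, and 7.27 to 7.61 in E20 lung, with 4 dim. Beyond within-group correlations, given below, the part of thyroid in the Nkx2-1 signal was not tested.

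**Figure D2:**
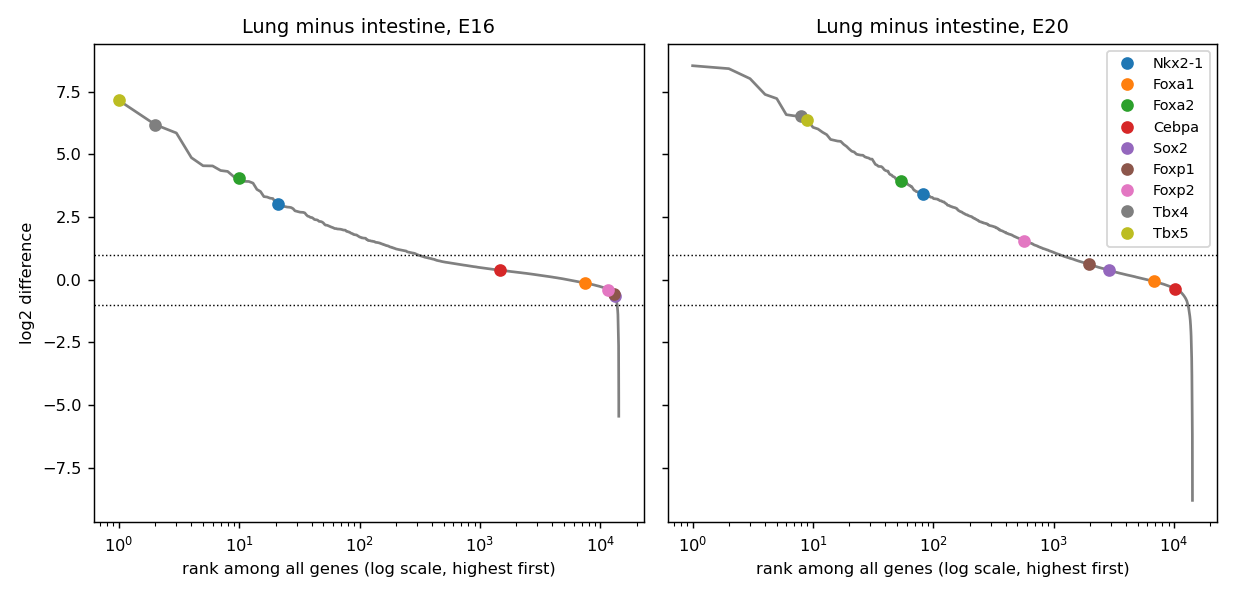
Log2 difference of lung minus intestine (y axis) of all 14218 genes (grey line) against their rank (x axis, log scale, highest first), at E16 (left) and E20 (right), with the 9 members as points and dotted lines at a 2-fold difference. At E16, Tbx5 and Tbx4 are ranks 1 and 2, Foxa2 rank 10 and Nkx2-1 rank 21; at E20 they are ranks 9, 8, 54 and 82.

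The promoters of these 4 genes and of Cebpa, the member that rose in both organs, are given here so that the letters ahead of the genes that differed most can be read beside their values. Sequences are from RefSeq on the GRCr8 build, which held a promoter for 7 of the 10 listed genes, and each runs 5′ to 3′ on the gene's strand from 250 bases before the gene start to 50 bases after it. Capitals mark any match, on either strand, to CTCAAG (an NKX2-1 core), TGTTT (a forkhead core), GGTGTG (a T-box core), ACAANG (a SOX core) or TTGCNNAA (a C/EBP core). Of 33469 promoters of this length, 15.8%, 51.9%, 17.9%, 42.1% and 10.6% hold these letters, in that order. The windows are Nkx2-1 on the minus strand at chr6:79734818-79735117, Foxa2 on the minus strand at chr3:155927459-155927758, Tbx4 on the plus strand at chr10:71228306-71228605, Tbx5 on the minus strand at chr12:42395310-42395609, and Cebpa on the plus strand at chr1:96896334-96896633.
Nkx2-1: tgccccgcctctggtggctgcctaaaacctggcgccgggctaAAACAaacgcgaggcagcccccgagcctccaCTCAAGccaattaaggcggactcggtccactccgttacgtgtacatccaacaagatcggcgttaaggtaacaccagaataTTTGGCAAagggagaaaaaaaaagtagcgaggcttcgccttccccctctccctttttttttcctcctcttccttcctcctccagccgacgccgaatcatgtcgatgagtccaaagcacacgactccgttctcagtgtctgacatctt
Foxa2: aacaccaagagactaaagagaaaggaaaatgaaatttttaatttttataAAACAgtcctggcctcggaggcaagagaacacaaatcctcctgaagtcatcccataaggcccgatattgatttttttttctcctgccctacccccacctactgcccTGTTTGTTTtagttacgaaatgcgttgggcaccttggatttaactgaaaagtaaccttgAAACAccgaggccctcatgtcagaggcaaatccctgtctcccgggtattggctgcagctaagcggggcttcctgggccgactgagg
Tbx4: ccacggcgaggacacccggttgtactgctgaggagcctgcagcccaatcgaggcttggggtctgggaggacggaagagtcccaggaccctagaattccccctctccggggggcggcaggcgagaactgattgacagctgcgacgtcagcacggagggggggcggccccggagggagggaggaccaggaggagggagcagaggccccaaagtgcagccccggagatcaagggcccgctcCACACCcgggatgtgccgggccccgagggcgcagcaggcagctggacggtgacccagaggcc
Tbx5: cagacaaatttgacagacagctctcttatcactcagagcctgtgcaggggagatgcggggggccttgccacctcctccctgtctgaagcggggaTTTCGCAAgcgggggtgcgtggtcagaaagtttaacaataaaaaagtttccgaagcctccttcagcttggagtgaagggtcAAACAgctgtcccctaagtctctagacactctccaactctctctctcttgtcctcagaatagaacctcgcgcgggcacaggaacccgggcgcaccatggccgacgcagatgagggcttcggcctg
Cebpa: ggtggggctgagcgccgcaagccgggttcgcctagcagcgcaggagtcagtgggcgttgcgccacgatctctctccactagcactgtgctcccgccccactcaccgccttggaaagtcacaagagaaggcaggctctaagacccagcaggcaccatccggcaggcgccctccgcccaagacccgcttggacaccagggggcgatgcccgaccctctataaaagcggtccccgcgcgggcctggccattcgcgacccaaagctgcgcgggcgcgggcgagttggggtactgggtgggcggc

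In the Nkx2-1 window the letters of its own core start 177 bases before the gene start, and a forkhead core starts 208 bases before it. The Foxa2 window holds 4 forkhead cores, of which the pair that starts 95 and 91 bases before the gene start overlaps. The Tbx4 window holds 1 T-box core, starting 12 bases before the gene start, and the Tbx5 window none. The Tbx5 window holds 1 forkhead core and 1 C/EBP core. None of the 5 sets of letters is in the Cebpa window. These matches describe letters only.

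Foxa1, the partner of Foxa2, gave no signal to compare. Its only probe set was dim in all 40 arrays, with group means of 5.88 ± 0.25 and 5.89 ± 0.31 in intestine at E16 and E20 and 5.76 ± 0.25 and 5.82 ± 0.24 in lung (SD, n = 10 arrays each). The groups overlapped in every comparison. The difference between lung and intestine at E16 was -0.12 (95% interval -0.355 to 0.107) and at E20 -0.067 (-0.298 to 0.164), and its sign turned with the scaling of the arrays.

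Cebpa rose in both organs, from near the median of all values to well above it. It was the only member called with age in lung, 1 of 9, where 11.8% of all genes were called. In intestine 2 of 9 were called, Cebpa higher and Foxp2 lower, where 15.1% of all genes were called, 8.79% higher and 6.26% lower. With no fold minimum 7 of 9 passed in each organ, where 66.7% of all genes did in lung and 71.5% in intestine, so that passing without it sets no member apart. Arrays of the ages did not overlap for 4 of 9 members in lung and 3 of 9 in intestine, against 31.1% and 37.6% of all genes. In lung, Cebpa ran from 8.09 to 8.78 at E16 (median 8.47) and from 10.83 to 11.50 at E20 (median 11.30), a rise of 2.78 (SE 0.0978, limma adjusted p = 4.51e-26) or 6.87-fold. In intestine it ran from 7.59 to 8.53 at E16 (median 8.03) and from 11.48 to 11.70 at E20 (median 11.57), a rise of 3.53 (SE 0.0978, limma adjusted p = 2.49e-30) or 11.5-fold. The ages did not overlap in either organ. The rise was larger in intestine by 0.74 (SE 0.138, limma adjusted p = 9.78e-06), short of the 2-fold minimum.

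Of the 5 Cebpa probe sets, 4 were called higher at E20 in both organs, with rises of 2.78 to 3.74 in lung and 3.53 to 4.46 in intestine. The fifth, 1369658_at, stood near the median throughout and differed by 0.52 in lung and -0.042 in intestine. Over the 40 arrays the 4 correlated with each other at 0.978 to 0.996 and with the fifth at 0.389 to 0.415. Markers of liver, which is rich in C/EBP alpha, were uneven beside this rise. Of 10 measured, 2 fell in lung (Alb and Afp) and 4 rose in intestine (Afp, Fga, Serpina1 and Cps1), while the others were not called. In E20 intestine Cps1 stood at 14.01 ± 0.05 and Afp at 12.90 ± 0.27, against Alb at 9.03 ± 2.27 (SD, n = 10 arrays each). Whether the genes that rose mark liver in intestine was not tested. The mean of the 10 had a median of 7.88 at E16 and 6.50 at E20 in lung, and of 7.85 and 9.42 in intestine. In E20 lung, 9 of these genes were dim in the group mean, Alb and Afp among them. Of 6 general epithelial genes 5 rose in each organ beside it (Epcam, Cdh1, Krt8, Krt18 and Cldn7), the mean of the 6 having a median of 9.65 and 10.92 in lung and 9.11 and 12.23 in intestine. Beyond within-group correlations with the liver markers, the part of liver and of epithelium in the Cebpa result was not tested.

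**Figure D3:**
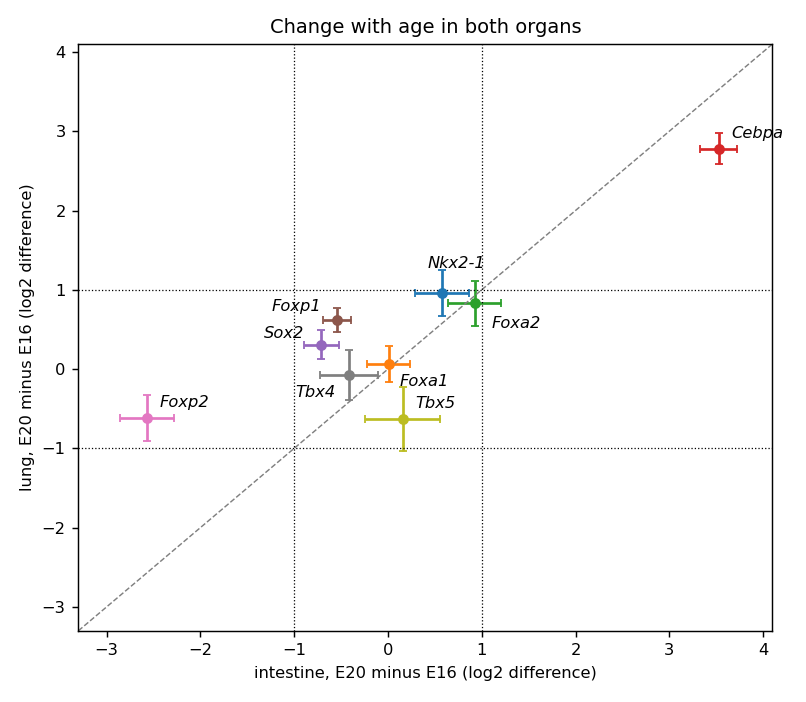
Log2 difference of E20 minus E16 in intestine (x axis) and in lung (y axis) for the 9 members, with 95% intervals; dotted lines mark a 2-fold difference and the dashed line equal change. Cebpa is past 2-fold on both axes, Foxp2 only on the intestine axis, and Foxp1 and Sox2 are above zero in lung and below it in intestine.

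Nkx2-1 and Foxa2 were higher at E20 in lung without reaching the 2-fold minimum. Nkx2-1 differed by 0.96 (SE 0.143, limma adjusted p = 1.47e-07), from a mean of 9.71 ± 0.42 to 10.67 ± 0.40 (SD, n = 10 each), and arrays of the ages overlapped. Its lowest E20 values, 9.78 and 10.23, were those of replicates 6 and 8, which carried mesothelial and liver transcripts. Replicate 1, with about as much liver transcript as replicate 8, stood at 10.75, near the group median of 10.76, and the part of these tissues was not tested. Without 7 arrays that carried more liver, pancreas or mesothelium transcripts (lung E20 replicates 1, 6 and 8, intestine E16 replicates 6, 8 and 9 and intestine E20 replicate 9) the difference was 1.14, and with array weights it was 1.04; both passed. Foxa2 differed by 0.83 in lung (SE 0.14, limma adjusted p = 1.5e-06), from 10.15 ± 0.28 to 10.98 ± 0.19. The 6 general epithelial genes changed by a median of 1.56 in lung and 3.54 in intestine, with 5 called higher in each. Their part in the Nkx2-1 and Foxa2 differences was not tested. Of 15 products of alveolar and airway epithelium, 14 were called higher at E20, where 7.15% of all genes were, with a median difference of 5.01 and Sftpb, Sftpa1, Slc34a2 and Sftpd at 7.13, 6.97, 6.50 and 5.81.

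In intestine, Foxa2 stayed dim but stood 0.93 higher at E20 (SE 0.14, limma adjusted p = 1.6e-07). Its E16 arrays split: replicates 6, 8 and 9, those with pancreas transcripts, stood at 6.74, 6.80 and 6.95, and the other 7 arrays at 5.49 to 6.13. Replicate 9 also had the highest liver mean of its group, 9.41, against 8.01 in the next array and a median of 7.85. Replicates 6 and 8 also had the highest epithelial means of the group, 9.51 and 9.46. Replicate 9 stood at 9.08, near the epithelial median of 9.11. The part of pancreas, liver and epithelium in the Foxa2 values was not tested. Without the 7 arrays left out above for Nkx2-1, the difference was 1.24 and was called. Replicates 6, 8 and 9 of E16 are among them, so leaving them out raises the difference. The Foxa2 difference was also called with quantile normalization (1.02), with array weights (1.07) and without intestine E16 replicate 8 (1.005). Nkx2-1 differed by 0.58 in intestine (SE 0.143, limma adjusted p = 4.13e-04), dim at both ages. The change with age did not pass as different between the organs for Nkx2-1 (0.38, 95% interval -0.0285 to 0.789) or for Foxa2 (-0.095, 95% interval -0.495 to 0.304).

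**Figure D4:**
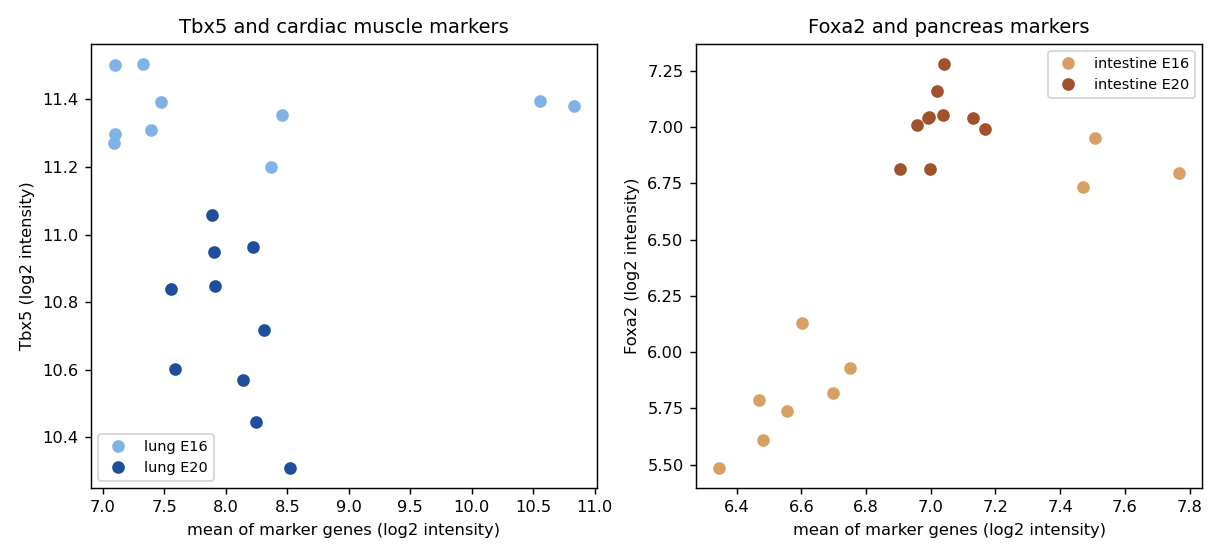
Left, Tbx5 against the mean of 9 cardiac muscle genes in each lung array; right, Foxa2 against the mean of 11 pancreas genes in each intestine array; both axes are log2 intensity. The lung E16 arrays with cardiac means of 10.55 and 10.83 stand near the Tbx5 median of their group, 11.37, in a range of 11.20 to 11.50. The 3 intestine E16 arrays with the highest pancreas means hold the highest Foxa2 of their group.

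With age in lung, Tbx4 differed little and Tbx5 was lower at E20 by less than 2-fold. Tbx4 stood at 11.31 ± 0.19 at E16 and 11.23 ± 0.15 at E20 (SD, n = 10 each), a difference of -0.076 (95% interval -0.388 to 0.237, limma adjusted p = 0.68). In intestine both T-box genes were dim at both ages, and Tbx4 differed by -0.41 and Tbx5 by 0.16. Tbx5 stood in lung at 11.36 ± 0.10 and 10.73 ± 0.24, a difference of -0.63 (SE 0.199, limma adjusted p = 0.00517). The ages did not overlap, and the difference was under 2-fold. Its SE pools the spread of all 4 groups, and the Tbx5 SD was 0.85 and 0.29 in the dim E16 and E20 intestine groups. Cardiac muscle also expresses Tbx5, and its markers were on lung arrays of both ages. The cardiac mean had a median of 7.43 at E16 (7.09 to 10.83) and 8.03 at E20 (7.55 to 8.52). Tbx5 was 11.40 and 11.38 in the 2 E16 arrays with the highest cardiac means, against a group median of 11.37. Without these 2 arrays the Tbx5 difference was -0.62, with the cardiac transcripts of the E20 arrays left in place. Beyond the within-group correlations that follow, the part of heart tissue in the Tbx5 signal was not tested. Within the E16 lung group Tbx5 and the cardiac mean correlated at r = 0.0137 (n = 10, permutation p = 0.97; rho = 0.164, permutation p = 0.658). In E20 lung r was -0.47 (n = 10, permutation p = 0.17; rho = -0.479, permutation p = 0.166), and -0.173 without the 2 arrays farthest from the median. At E16 r was -0.372 without such arrays.

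In intestine, replicate 8 of E16 stood highest in its group for both T-box genes (6.37 for Tbx4 and 6.004 for Tbx5), for Nkx2-1 (7.23) and for the cardiac mean (7.46). It was highest too for other dim probe sets, such as Foxa1 (6.24), Sox2 1389826_at (6.28, next 5.35) and Cebpa 1384126_a_at (6.37, next 5.50). In all it was highest for 8 of the 9 member probe sets whose mean was dim in this group, and for 11 of all 20. Without it, Tbx5 and Tbx4 differed between lung and intestine at E16 by 7.35 and 6.33.

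Foxp1 and Foxp2 parted with age between the organs. Foxp2 fell in intestine from 11.30 ± 0.18 to 8.73 ± 0.54 (SD, n = 10 each), with E16 arrays at 11.01 to 11.60 and E20 arrays at 8.05 to 9.59. The change was -2.57 (SE 0.143, limma adjusted p = 1.06e-19), and 47 of the 14218 genes had a larger fall. In lung it stood at 10.91 ± 0.23 and 10.29 ± 0.25, a difference of -0.61 (SE 0.143, limma adjusted p = 2.22e-04) that was under 2-fold although the ages did not overlap. The difference between the changes was 1.95 (SE 0.202, limma adjusted p = 3.09e-11) and was called. Foxp2 was thus 0.39 lower in lung than in intestine at E16 (limma adjusted p = 0.0159) and 1.56 higher at E20 (SE 0.143, limma adjusted p = 6.76e-13).

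Foxp1 stood on opposite sides in the organs. In lung it ran from 10.26 to 10.56 at E16 and from 10.78 to 11.44 at E20, a difference of 0.62 (SE 0.0761, limma adjusted p = 2.02e-09) with no overlap. In intestine it ran from 10.80 to 11.25 at E16 and from 10.27 to 10.81 at E20, a difference of -0.54 (SE 0.0761, limma adjusted p = 3.42e-08). Neither reached 2-fold, while the difference between the changes, 1.16 (SE 0.108, limma adjusted p = 1.56e-12), was called. In all, 3 of 9 members were called for this difference between organs, Foxp2, Foxp1 and Sox2, each toward lung, where 17.6% of all genes were called, 9.13% toward lung and 8.48% toward intestine. With no fold minimum 5 of 9 passed, where 66.2% of all genes did. Of the 5 Foxp1 probe sets 2 were called for it, at 1.16 and 1.29, and the other 3 stood at 0.069, 0.48 and 0.81. With the probe sets averaged Foxp1 stood at 0.76 and was not called.

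Sox2 depended on the probe set read. The representative set, 1381874_at, stood at 9.67 ± 0.18 in intestine at E16 and 8.96 ± 0.13 at E20 (SD, n = 10 each), with no overlap and a difference of -0.71 (SE 0.0906, limma adjusted p = 4.33e-09). In lung it stood at 9.04 ± 0.19 and 9.34 ± 0.30, a difference of 0.31 (SE 0.0906, limma adjusted p = 0.00306) with overlap. The set 1379942_at, about as bright at E16, fell in intestine from 9.70 ± 0.26 to 7.22 ± 0.53, a change of -2.48 (SE 0.165, limma adjusted p = 6.6e-17 over all probe sets), and differed by 2.2e-04 in lung. The set 1375153_at fell in intestine by 1.11 on the log2 scale (SE 0.085), and 1389826_at was dim on all 40 arrays. So 2 of 4 sets were called lower in intestine, and none in lung. With the sets averaged, Sox2 fell in intestine by 1.08 on the log2 scale and was called.

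The difference between the Sox2 changes was 1.01 with the representative set (SE 0.128, limma adjusted p = 4.65e-09), 2.48 with 1379942_at and 1.33 with 1375153_at. The first was called narrowly: with quantile normalization it was 0.99 and with centred arrays 0.88, and it was not called. Enteric neuron and glia genes, among which Sox2 is active, were lower at E20 in intestine as well. Of 7 measured, 4 fell (Stmn2, Tubb3, Sox10 and Elavl4), where 6.26% of all genes did. The mean of the 7 had a median of 9.56 at E16 and 8.60 at E20. Stomach markers were dim, all 8 of them, in all 4 groups. In lung, where Sox2 marks the airway, 2 of 7 genes of stratified epithelium rose, while 7.15% of all genes did. The mean of these 7 had a median of 6.997 at E16 and 7.703 at E20. Beyond within-group correlations, the part of these tissues in the Sox2 change was not tested. Within the intestine groups the representative set and the enteric mean correlated at r = 0.475 at E16 (n = 10, permutation p = 0.169; rho = 0.455, permutation p = 0.193) and r = 0.229 at E20 (n = 10, permutation p = 0.533; rho = 0.442, permutation p = 0.206). Without the 2 arrays farthest from the median r was 0.0692 and 0.353. With probe sets averaged r was 0.792 at E16 and 0.807 at E20 (n = 10, adjusted permutation p = 0.0326 each), 0.63 and 0.656 without such arrays, and by rank rho was 0.842 (adjusted permutation p = 0.0547) and 0.636 (adjusted permutation p = 0.15).

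**Figure D5:**
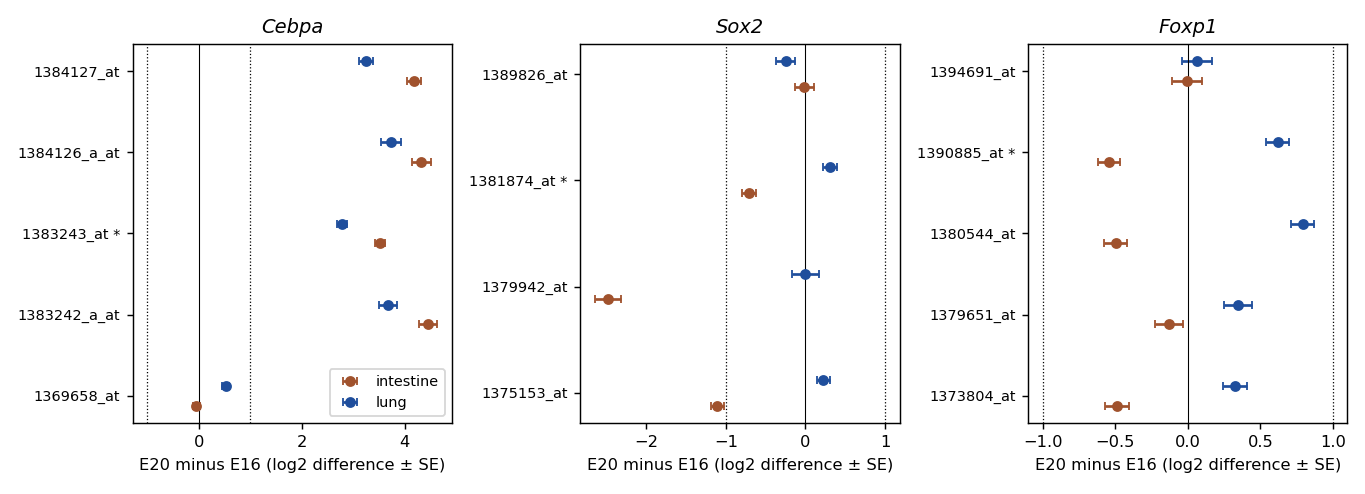
Log2 difference of E20 minus E16 (x axis, point and SE) for each probe set (y axis) of Cebpa, Sox2 and Foxp1, in intestine and lung; an asterisk marks the representative set and dotted lines a 2-fold difference. For Cebpa 4 of 5 sets are past 2-fold in both organs, for Sox2 the intestine values run from -2.48 to -0.016, and for Foxp1 all sets lie within 2-fold.

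Across the 14 relations computed between members and markers of another tissue within a group, none passed after adjustment (lowest adjusted permutation p = 0.363), and 1 had an unadjusted permutation p under 0.05. That was Nkx2-1 against thyroid markers in E16 lung, with r = -0.659 (n = 10, permutation p = 0.0394; rho = -0.697, permutation p = 0.031), and -0.241 without the 2 arrays farthest from the median. Cebpa against liver markers in E20 lung gave r = -0.637 (n = 10, permutation p = 0.0519; rho = -0.467, permutation p = 0.179), and -0.273 without such arrays.

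The order of the 4 groups differed between members. For Nkx2-1 and Foxa2 it was lung E20, lung E16, intestine E20 and intestine E16, and only the step between the organs was without overlap. For Tbx4 and Tbx5 lung E16 came first and lung E20 second. For Cebpa both E20 groups, which overlapped, stood above both E16 groups, which overlapped too. For Foxp2 the order was intestine E16, lung E16, lung E20 and intestine E20, with overlap between the first pair alone. Neighbouring groups overlapped throughout for Sox2, Foxp1 and Foxa1.

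Other transcription factors of the same germ layers were read from a list. Of 29 further endodermal and epithelial factors measured, 10 rose and 1 fell in lung with age (median difference 0.70, all genes -0.0064), where 7.15% of all genes rose and 4.63% fell. The largest were Hopx, an alveolar homeodomain protein (3.21), Tfcp2l1 (2.95), Klf5 (2.90) and the ETS factor Elf5 (2.84), and Sox11 fell (-2.35). In intestine 8 rose and 4 fell with age (median difference 0.11), where 8.79% of all genes rose and 6.26% fell. Hopx (2.53), Tfcp2l1 (2.10), Klf5 (3.05) and Sox11 (-2.29) were called there in the same direction, and Elf5 (0.85) was not. Among these genes the difference between the changes was called for Elf5 alone (1.99). Between organs, 9 of these 29 were called higher in lung at E16 and none lower, where 2.13% and 3% of all genes were. At E20, 13 were higher and 3 lower, where 7.91% and 8.21% of all genes were. The Iroquois factors Irx1 and Irx2 differed most, by 3.93 and 3.86 at E16 and by 4.97 and 4.40 at E20, followed by Etv5, which answers to FGF signals (2.92 and 3.47).

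Of 25 further mesodermal factors measured, 1 rose and 3 fell in lung (median difference -0.24), where 7.15% and 4.63% of all genes did. In intestine none rose and 7 fell (median difference -0.69), where 8.79% of all genes rose and 6.26% fell. Tcf21, a factor of lung mesenchyme, rose in lung (1.18), while Wt1 (-1.34), the hedgehog effector Gli1 (-1.26) and Nr2f1 (-1.10) fell. In intestine the largest falls were Wt1 (-2.44), Meis2 (-2.36), Nr2f1 (-2.08) and Twist1 (-1.99), where 6.26% of all genes fell. The difference between the changes was called toward lung for 7 of these 25 and toward intestine for none, with Tcf21 at 2.35. For all genes the shares were 9.13% toward lung and 8.48% toward intestine. At E16, 2 were higher and 5 lower in lung than in intestine, where 2.13% and 3% of all genes were. The largest fold was that of Osr2 (-2.00).

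Of 17 signalling genes measured around the lung bud, Wnt2, the mesenchymal ligand that helps specify the lung, differed most between the organs, by 3.52 (SE 0.0857) at E16 and 3.02 at E20. With age in lung 3 rose, where 7.15% of all genes did: the hedgehog inhibitor Hhip (1.96), Bmp4 (1.23) and Vegfa (1.16). Fgf9 fell (-1.45), where 4.63% of all genes did. Fgf10, a mesenchymal growth factor downstream of Tbx4 and Tbx5 in lung branching and named for that role after its values were seen, stood at 7.52 and 7.61 in lung, dim at both ages. Of 8 intestinal endoderm factors measured, 6 rose in intestine with age, where 8.79% of all genes did, led by Cdx2 (4.31) and Hnf4a (4.17). In lung 1 rose, Klf4 (1.39), where 7.15% of all genes did.

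The genes most like each member over the 40 arrays were named by Pearson's r among genes with a mean above 7.89; these values mostly follow the 4 group means, so they are given as a description. Nkx2-1 was most like Foxa2 (0.980), Irx1 (0.980) and the collagen Col13a1 (0.979), and Foxa2 like Rasl12 (0.987), Ablim3 (0.983) and Col13a1 (0.982). Tbx5 was most like Tbx4 (0.992), Wnt2 (0.983) and the homeobox gene Meox2 (0.981), and Tbx4 like Wnt2 (0.984), Meox2 (0.982) and Irx1 (0.978). Cebpa was most like the polarity gene Llgl2 (0.991), Syngr2 (0.991) and Anxa11 (0.990). Foxp2 was most like Jam3 (0.978), Evl (0.971) and Rab34 (0.969), Foxp1 like Tsc22d1 (0.902), Meg3 (0.891) and Tmem178a (0.886), and Sox2 like Flywch1 (0.891), Sirt2 (0.874) and Ttc5 (0.868). For Foxa1 the highest r was 0.480, with Scap, followed by Nxph3 (0.463) and Slc38a3 (0.462).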

How the data were processed

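Expression was measured on 40 arrays, 10 each of intestine and lung at E16 and E20. The deposited values are normalized intensities on a linear scale, 1 per probe set, from 6.65 to 39901. The submitters' processing notes name RMA, with a version not given in the sources used here. Whether both organs were normalized as 1 set is not known here. Because arrays have no depth, their number limits the precision. log2 was taken here; the plan had taken the values to be log2 already.

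Names came from the platform annotation (20832 of 31099 probe sets with 1 symbol, 436 with several, 9831 with none), updated by Entrez identifier through RefSeq for 20764. Means of 4 groups were fitted to all arrays with limma 3.58.1 in R 4.3.3, without covariates, and 5 contrasts were taken. On data simulated for lung E20 minus lung E16 over 14218 genes, 100% of genes changed by 1.5 or by 3 log2 units were recovered. Both sizes lie above the 2-fold minimum and the simulated noise was normal and independent, so recovery near the minimum was not tested. Correlations used 100000 permutations, two-sided, adjusted over 14 relations. Members, lists and tests were chosen with earlier results of these data known, and the pancreas list was added after values were seen. All members were named, with the 3 genes of highest r for each and up to 4 called genes of each list in each direction; other genes were given as counts. Alternatives are listed in the closing section.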

Additional observations from a re-analysis of the deposited data

Results flagged for a closer look

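Of the 9 members, 3 changed with age differently in lung and intestine by a test of the difference itself, where 17.6% of all genes were called. Foxp2 differed by 1.95 (limma adjusted p = 3.09e-11), Foxp1 by 1.16 (limma adjusted p = 1.56e-12) and Sox2 by 1.01 (limma adjusted p = 4.65e-09), each in the direction of a higher change in lung. The call was lost for Sox2 with quantile normalization (0.99) and with centred arrays (0.88), and for Foxp1 with averaged probe sets (0.76).

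Of 36 groups of 10 arrays checked (9 members in 4 groups), 3 held an array far from the others by Dixon's criterion, which flags about 1 in 20 groups by chance. Nkx2-1 in intestine E16 replicate 8 stood at 7.23, against 6.77 in the next array. Foxa1 in intestine E20 replicate 2 stood at 5.14, against 5.77 in the next. Sox2 in intestine E16 replicate 4 stood at 10.12, against 9.76 in the next.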

How the results depend on the processing

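The 45 member differences (9 members, 5 contrasts) were recomputed under 10 alternatives, the last 2 of them chosen after seeing the data: quantile normalization, arrays centred on their medians, array weights, averaged probe sets, every probe set fitted on its own, genes above the median level only, the replicate block, and leaving out 7 arrays with liver, pancreas or mesothelium markers (lung E20 replicates 1, 6 and 8, intestine E16 replicates 6, 8 and 9, intestine E20 replicate 9), the cardiac-rich lung E16 replicates 5 and 9, or intestine E16 replicate 8. The choice of the 7 arrays also rests in part on the pancreas list, which was added after values were seen. Of 445 values 428 kept direction and call, 7 gained a call, 3 lost one and 7 reversed. With genes above the median only, Foxa1 had no value. That setting, single probe sets and the replicate block leave a member's difference unchanged by construction. In these settings only the adjusted p could move, so they test the sizes and directions of no member. The 7 reversals were all of the dim Foxa1: with centred arrays -0.016 for the lung change, -0.073 for the difference between changes and 0.028 at E16; with quantile normalization -0.031 for the difference, 0.12 between organs at E16 and 0.084 between organs at E20; with array weights -0.0027 for the difference. The members called with age in lung numbered 2 with array weights and 2 without the 7 arrays, Nkx2-1 joining Cebpa. Fitted as probe sets, 2802, 3678, 4258, 1311 and 3909 features were called (lung, intestine, difference, E16, E20), against 1674, 2140, 2503, 730 and 2292 genes, more features being tested. With averaged probe sets, 2 marker correlations passed in place of 0, those of Sox2 with enteric genes, and reversals were Cebpa with liver (0.465) and Sox2 with stomach (-0.677) in E20 intestine, and Nkx2-1 with thyroid (-0.112) and Sox2 with oesophagus (-0.0864) in E20 lung; with centred arrays, Tbx5 with cardiac muscle in E16 lung (-0.187). Their cause was not tested. Centring moved the median of all genes from -0.11 to 0.044 at E16 and from 0.032 to -0.098 for the difference. The shared numbers were not taken as pairs, since not every same-numbered lung and intestine pair correlated over 0.1. The ages differed: at E16, 7 of 10 pairs did (-0.0467 to 0.701), 6 matched their own number best, a hint of pairing from the data and not the design, and 9 shared their Xist state; at E20 the counts were 4, 1 and 4 (-0.14 to 0.395). With the replicate block all 45 member values kept their call, and 1674, 2140, 2505, 730 and 2292 genes were called. Its differences are those of the main fit by construction, and only the adjusted p could change. For changes with age the block joined E16 and E20 arrays of the same number, which come from different embryos.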

Other observations

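The fall of Foxp2 in intestine differed among E20 arrays. The 5 arrays numbered 1 to 5 stood at 8.75 to 9.59 and the 5 numbered 6 to 10 at 8.05 to 8.62, without overlap. The split was not particular to Foxp2. In the same order, Sox2 1379942_at stood at 7.340 to 8.078 against 6.161 to 7.336, without overlap. The cardiac mean stood at 7.03 to 7.24 against 7.29 to 7.52, also without overlap. Nkx2-1 overlapped, at 7.20 to 7.62 against 6.94 to 7.32. The labels do not say what the numbers stand for, and the split was noticed after the values were seen and not tested.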
